A study of Mus musculus with 24 samples.

Results

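A set of 10 genes of MHC class II antigen presentation were followed across sorted cells of mouse gliomas: Cd74, H2-Aa, H2-Ab1, H2-Eb1, H2-DMa, H2-DMb1, H2-DMb2, H2-Oa, H2-Ob and Ciita. They were taken by symbol, with earlier results of these data known, and all 10 were found among the 55938 genes of the table. The 8 genes whose symbols begin with H2 lie between positions 34092340 (H2-Oa) and 34316674 (H2-Eb1) of chromosome 17 in GRCm38. Cd74 lies on chromosome 18 at 60803848 to 60812652 and Ciita on chromosome 16 at 10480059 to 10528418. All 10 are annotated as protein coding in GENCODE release M21.

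The tumours were raised by transferring PDGFB into the telencephalic ventricles of mouse embryos, so every animal carried the transferred growth factor. Tumours were cut out under a fluorescence microscope, and their cells were sorted into glioma cells, which carried a fluorescent marker, and surrounding cells, which had none. Poly(A) RNA of both populations was sequenced from 12 tumours, which gave 24 libraries. The values analysed were the deposited expected counts per gene, scaled here to CPM, counts relative to library size.

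Glioma cells and surrounding cells were compared at 3 stages with 4 tumours each. Mice without symptoms were sampled 33 to 34 days after the gene transfer and gave tumours 3228A, 3228B, 3228D and 3229B. Mice with early symptoms, sampled on days 35 to 50, gave 3108C, 3108D, 3109D and 3145A. Mice with late symptoms, sampled on days 100 to 175, gave 3054A, 3054B, 3054C and 3057E. The sample labels mark the glioma cells of 3057E as red and those of the remaining 11 tumours as green. Neither mouse strain nor the promoter of the transferred gene is given in the sources used here. Stage, day and the prefix of the tumour code cannot be told apart, and each code is a separate tumour.

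Library totals ranged from 9075510 to 15471100 counts. The 8 markers of oligodendrocyte precursors, the lineage that these gliomas resemble, summed to 8957 to 15207 CPM in glioma cells and to 524 to 11056 CPM in surrounding cells. Pdgfb stood at 27.2 to 107 CPM in glioma cells and at 12.7 to 80.0 CPM in surrounding cells; whether its counts include the transferred sequence is not given. Xist was high in 1 library and low in the other for codes 3108D and 3109D, and fell on the same side for the other 10 codes. In glioma and surrounding cells it stood at 1588 and 2.12 CPM in 3108D, and at 1.92 and 1077 CPM in 3109D. The pairing of libraries within these codes is thus uncertain. The leukocyte gene Ptprc stood at 69.3 CPM in the glioma library of 3057E and at 0.422 to 1.67 CPM in 3054A, 3054B and 3054C. The myeloid gene Csf1r stood there at 261 CPM, and at 3.04 to 5.75 CPM in those libraries. Counts of members called are given with and without these libraries. In bulk libraries, fewer cells of a type and less RNA per cell cannot be told apart.

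MHC class II molecules are cell surface dimers of an alpha and a beta chain that present peptides from ingested proteins to CD4 T cells. New dimers travel with the invariant chain Cd74, whose fragment is exchanged for peptides in endosomes by the DM dimer, while the DO dimer restrains DM. Transcription of these genes is driven by the coactivator Ciita, which binds factors assembled on the X and Y boxes of their promoters. In brain, class II is high on dendritic cells, B cells and some macrophages, and low on resting microglia.

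The promoters of the H2 genes are shown for the letters of the X and Y boxes in them. RefSeq's table of GRCm38.p6 held 8 windows of 300 bases for 7 of the members, with 2 windows for H2-DMa; H2-Ab1, Ciita and Cd74 were not matched. The letters CNNATGATG, for the X box, and TGATTGG, for the Y box, were searched on both strands. They were chosen from these windows, so their presence here is a description. Capitals mark the matches in the 57 bases below, each read 5′ to 3′ in the direction of its gene.
H2-DMb2: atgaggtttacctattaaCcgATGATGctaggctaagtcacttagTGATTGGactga
H2-Ob: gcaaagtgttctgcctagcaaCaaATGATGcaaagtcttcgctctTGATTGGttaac
H2-Eb1: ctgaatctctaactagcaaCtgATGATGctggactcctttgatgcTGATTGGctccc
H2-Aa: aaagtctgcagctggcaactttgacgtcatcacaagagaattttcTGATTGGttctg
The stretch of H2-DMb2 is chr17:34145112-34145168 on the plus strand, and that of H2-Ob is chr17:34238801-34238857 on the plus strand. The stretch of H2-Eb1 is chr17:34305761-34305817 on the plus strand, and that of H2-Aa is chr17:34287862-34287918 on the minus strand. None of the 4 overlaps an annotated exon.

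The X letters were followed by the Y letters within 30 bases in 4 of the 32851 promoter windows in the table, a share of 0.0122%. Those windows belonged to H2-DMb1, H2-DMb2, H2-Eb1 and H2-Ob, with gaps of 18, 18, 17 and 15 bases. The Y letters were in 7.82% of all windows, those of H2-Aa and H2-Oa among them, and the X letters in 2.75%. Both windows of H2-DMa held neither set of letters. The X and Y letters do not overlap each other in these windows.

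In glioma cells every class II gene was lower than in surrounding cells: 10 of 10 fell, against a background of 24.2% of the 18810 genes tested (edgeR's quasi-likelihood test, adjusted p under 0.05, 24 libraries). Their median log2 fold change was -5.88, beside 0.06 over all genes. On the log2 scale Cd74 fell by 7.45 and H2-Aa fell by 7.22, the largest falls among the members, while H2-DMa fell by 3.22 and Ciita fell by 4.16, the smallest. All 10 genes were lower in glioma cells for each of the 12 tumour codes, 3108D and 3109D included, as were 12.4% of all genes. The libraries of the populations did not overlap for 9 members, against 5.59% of genes that were lower without overlap; H2-DMb2 was the exception. Without 3057E, and without 3108D and 3109D, 10 of 10 members were again called lower, and 10, 9 and 10 in asymptomatic, early and late symptomatic tumours. Without 3057E the folds of 6 members were larger by over 1.5 times, with log2 fold changes of -8.86 for Cd74, -8.45 for H2-Aa, -7.48 for H2-Eb1, -7.28 for H2-DMb1, -6.51 for H2-Oa and -8.30 for H2-Ob. They were -6.80 for H2-DMb2, -5.58 for H2-Ab1, -4.09 for Ciita and -3.55 for H2-DMa.

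Cd74, the invariant chain, had a lowest, median and highest level of 0.338, 1.09 and 61.4 CPM in glioma cells, against 82.1, 595 and 2135 CPM in surrounding cells. The highest glioma library, 3057E, stood below the lowest surrounding library, and the other 11 glioma libraries were at or below 3.21 CPM. The log2 fold change was -7.45 ± 0.73 (SE, adjusted p = 3.90e-08 by edgeR).

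H2-Aa, the alpha chain of the I-A molecule, had 0.0657, 0.651 and 24.7 CPM as lowest, median and highest level in glioma cells, against 35.0, 258 and 1019.7 CPM in surrounding cells. Its partner H2-Ab1, the I-A beta chain, had 1.11, 4.36 and 16.9 CPM in glioma cells, against 31.7, 227 and 1104 CPM in surrounding cells. H2-Eb1, the beta chain of the I-E molecule, had 0.298, 0.846 and 11.6 CPM in glioma cells, against 27.5, 188 and 819.6 CPM in surrounding cells. For all 3 chains the populations were apart, and 3057E was the highest glioma library. The log2 fold changes were -7.22 ± 0.69 for H2-Aa, -5.44 ± 0.36 for H2-Ab1 and -6.80 ± 0.53 for H2-Eb1.

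H2-Ea, the I-E alpha chain, was at 0 CPM in all 24 libraries, and H2-Eb2 did not exceed 0.0893 CPM in glioma cells and 1.33 CPM in surrounding cells, so neither passed the filter on low counts. The mouse strain, on which H2-Ea depends, is not given in the sources used here.

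Among the peptide editors, H2-DMa, the alpha chain of DM, had a lowest, median and highest level of 3.95, 6.79 and 15.1 CPM in glioma cells, against 33.6, 64.0 and 183 CPM in surrounding cells. H2-DMb1 and H2-DMb2 encode the DM beta chain from neighbouring copies. H2-DMb1 was at 0 in 4 glioma libraries and reached 7.18 CPM in 3057E, against 11.5 to 101 CPM in surrounding cells. H2-DMb2 was likewise at 0 in 4 glioma libraries and reached 1.50 CPM in 3057E, against 1.40 to 39.5 CPM in surrounding cells. That overlap involved 1 glioma library and the surrounding library of 3109D. The log2 fold changes were -3.22 ± 0.24 for H2-DMa, -5.58 ± 0.61 for H2-DMb1 and -6.22 ± 0.45 for H2-DMb2.

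The first transcripts of H2-DMb1 and H2-DMb2 were identical at 94.4% of 1255 aligned bases, while H2-DMb1 and H2-Ab1 were identical at 62.2% of 1104 aligned bases. Expected counts split shared reads by estimate, and the counts of both copies were not whole numbers in 18 of 24 libraries, so their separate levels are uncertain. Summed as 1 gene, an alternative chosen after the data were seen, they had a log2 fold change of -5.73 ± 0.55.

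H2-Oa and H2-Ob encode the alpha and beta chains of DO. H2-Oa was at 0 in 1 glioma library and reached 2.15 CPM, against 5.24 to 36.4 CPM in surrounding cells. H2-Ob was at 0 in 5 glioma libraries and reached 3.39 CPM, against 4.74 to 25.6 CPM in surrounding cells. Both were highest in the glioma library of 3057E, and their populations were apart. The log2 fold changes were -5.36 ± 0.48 for H2-Oa and -6.18 ± 0.62 for H2-Ob.

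Ciita, the coactivator of the other members, had 0.292, 0.673 and 1.73 CPM as lowest, median and highest level in glioma cells, against 2.04, 12.0 and 67.8 CPM in surrounding cells. The populations did not overlap, and the highest glioma library, 3109D, was close to the lowest surrounding library. The log2 fold change was -4.16 ± 0.36 (adjusted p = 8.22e-09 by edgeR). The other 9 members were highest among gliomas in 3057E, but Ciita there stood at 0.492 CPM beside 0.506 to 0.804 CPM in 3054A, 3054B and 3054C.

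**Figure D1:**
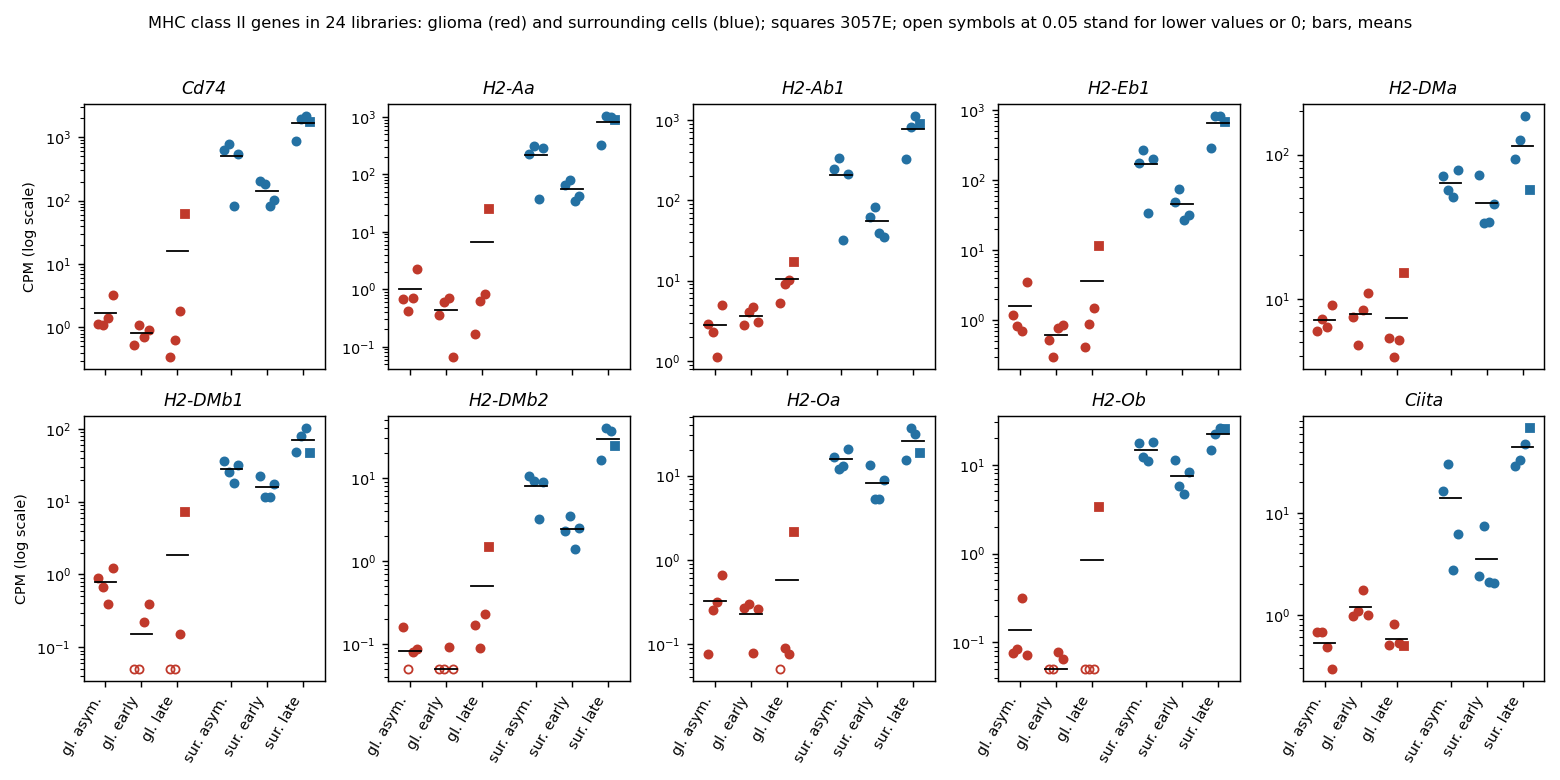
Each panel plots 1 member, with CPM on a log axis and libraries grouped by population (glioma, left; surrounding, right) and stage; points are libraries, squares are 3057E and bars are means of 4. Glioma libraries lie below surrounding libraries for 9 of 10 members, and among surrounding libraries the late stage is the highest on average.

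Within each stage the fall was seen again. In asymptomatic tumours 10 of 10 members fell, beside 12.5% of all genes. In early symptomatic tumours 9 of 10 fell, beside 12.4%, and in late symptomatic tumours 10 of 10 fell, beside 19.9%. The member that did not pass was Ciita in early symptomatic tumours. Its glioma libraries had 0.977, 1.09, 1.73 and 0.985 CPM, against 2.39, 7.51, 2.11 and 2.04 CPM in the surrounding libraries of the same codes. All 4 tumours showed it lower in glioma cells, with a log2 fold change of -1.54 ± 0.57 (adjusted p = 0.083 by edgeR; 0.030 to 0.71 over 22 alternatives, 4 of which called it). In asymptomatic and late symptomatic tumours Ciita fell by 4.70 and 6.23 on the log2 scale.

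The markers of immune cells moved with the class II genes. All 8 myeloid markers and all 10 microglia markers fell in glioma cells, beside 24.2% of all genes. So did 10 of 10 dendritic cell markers, 8 of 8 T cell markers and both B cell markers tested of 6. The monocyte and macrophage list had 8 lower and 2 higher of 10, beside 24.2% and 22% of all genes. In it Vcan (1113 beside 537 CPM) and Cd163 (17.6 beside 9.94 CPM) had higher medians in glioma than in surrounding cells. Summed over the 8 myeloid markers, glioma libraries had 9.37 to 936 CPM, against 1582 to 9155 CPM in surrounding libraries, and no marker was at 0 in any library. The microglia markers summed to 140 to 1624 CPM in glioma and 1327 to 10826 CPM in surrounding cells, with overlap. In 3057E the sum was higher in glioma cells, at 1624 beside 1327 CPM. The monocyte and macrophage sums also overlapped, at 700 to 3628 and 843 to 4948 CPM. The 10 dendritic cell markers summed to 2.62 to 95.1 CPM in glioma cells, with 2 to 5 of them at 0, against 82.3 to 704 CPM in surrounding cells. Itgax alone reached 78.2 CPM in glioma cells. With the mean of the myeloid markers as a covariate, 3 members were called lower in glioma cells, namely Ciita (-4.98 ± 0.98), H2-DMb2 (-3.97 ± 0.81) and H2-Ab1 (-4.35 ± 0.88), and 37 genes of all. The other 7 stayed below 0, with log2 fold changes of -1.17 for H2-DMb1, -1.31 for H2-DMa, -1.81 for H2-Oa, -2.67 for H2-Ob, -3.45 for Cd74, -3.68 for H2-Aa and -4.21 for H2-Eb1, and adjusted p of 0.052 to 0.82 by edgeR. By stage that fit called 4, 0 and 1 members in asymptomatic, early and late symptomatic tumours, and the shares of all genes called by stage are not given here. The mean log2 of the myeloid markers was 0.48 to 6.40 in glioma libraries, highest in 3057E, and 7.13 to 9.73 in surrounding libraries. It did not overlap between the populations, so this fit cannot separate the markers from the sort. How far immune cells or their RNA within the sorted glioma libraries set the levels there was not tested.

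The members were not reduced in proportion. The glioma level as a share of the surrounding level of the same code had a median over 12 tumours of 0.421% for Cd74, 0.418% for H2-Aa and 0.890% for H2-Eb1. H2-Ab1 had a median of 2.14%, Ciita of 4.39% and H2-DMa of 12.2%. For comparison, Ptprc had a median of 1.59% and Csf1r of 1.45%. The medians of the 10 members thus lay on both sides of those of the leukocyte markers.

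**Figure D2:**
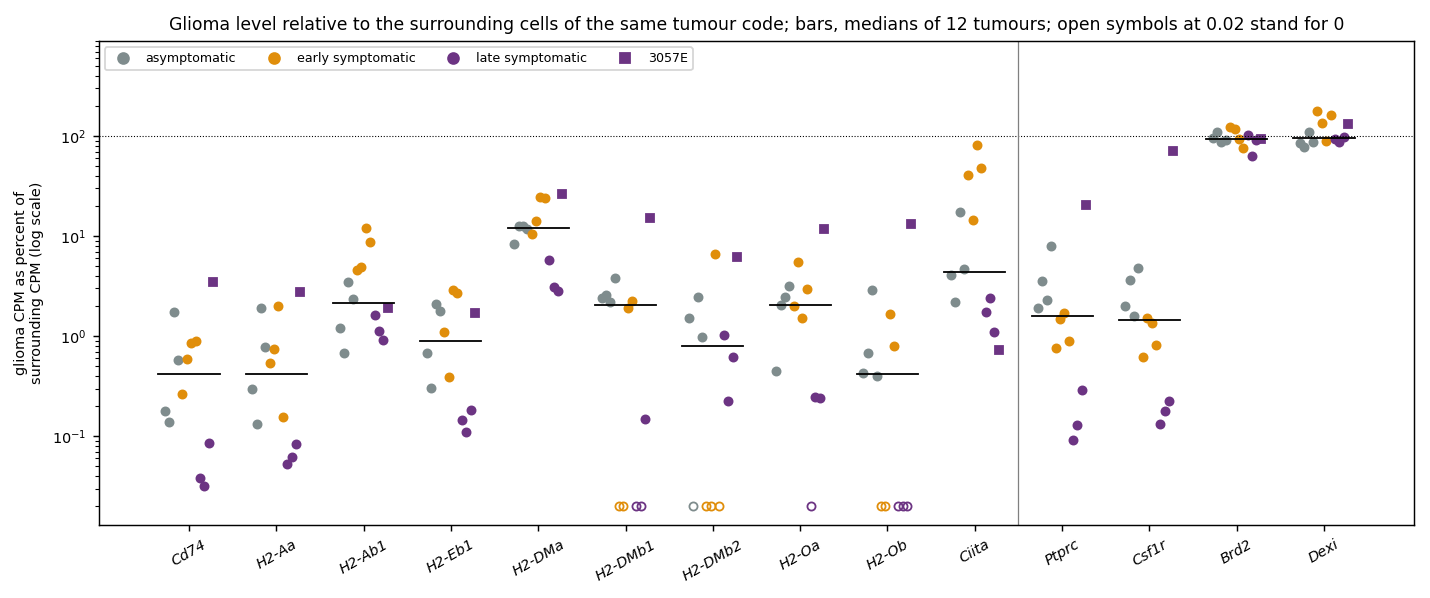
The glioma level is plotted as a percent of the surrounding level of the same code on a log axis, for the 10 members, 2 leukocyte markers and 2 genes that overlap members; points are 12 tumours coloured by stage, squares are 3057E and bars are medians. The medians of H2-DMa and Ciita lie above those of the other members, and those of Brd2 and Dexi lie near 100%; in 3057E Ciita lies at 0.725%.

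Ratios of counts within a library are not touched by scaling between libraries. The 5 members with counts in all 24 libraries beside Cd74 were compared by their count ratio to Cd74, with exact two-sided sign flips over 12 tumours, for which the smallest possible p is 0.000488. The ratio of H2-DMa to Cd74 ranged from 0.245 to 15.8 in glioma cells, against 0.0328 to 0.618 in surrounding cells. H2-DMa had more counts than Cd74 in 11 of 12 glioma libraries and in 0 of 12 surrounding libraries. The log2 ratio was higher by 5.05 in glioma cells, in 12 of 12 tumours (exact sign flips, p = 0.000488, adjusted over 5 ratios 0.00163).

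The ratio of Ciita to Cd74 was higher in glioma cells by 4.35 on the log2 scale in 11 of 12 tumours (exact sign flips, adjusted p = 0.00163). That of H2-Ab1 was higher by 2.95 in 11 of 12 tumours (exact sign flips, adjusted p = 0.00163), and that of H2-Eb1 by 1.12 in 10 of 12 (exact sign flips, adjusted p = 0.00793). For H2-Aa the difference was 0.19, with 8 of 12 tumours higher (exact sign flips, adjusted p = 0.54). It passed without 3145A, whose glioma library held 1 count of H2-Aa (0.44, exact sign flips, adjusted p = 0.0156), an alternative chosen after the data were seen. For Ciita and H2-Ab1 the exception was 3057E, whose glioma ratios, 0.00801 and 0.276, lay below every surrounding library. Without 3108D and 3109D the differences were 5.11 for H2-DMa, 4.10 for Ciita, 2.86 for H2-Ab1, 1.23 for H2-Eb1 and 0.08 for H2-Aa, an alternative chosen after the data were seen. The first 4 still passed, with adjusted p of 0.00651 to 0.00732 (exact sign flips, 10 tumours). These ratios rest on few counts in glioma cells, where Cd74 had 4 to 44 counts outside 3057E and Ciita 4 to 22.

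H2-DMa and Ciita each share exon bases with a gene on the opposite strand. H2-DMa shares 360 bases with Brd2, a bromodomain protein, and Ciita shares 329 bases with Dexi. H2-Oa shares 321 bases with the antisense gene BC051537, which did not exceed 0.610 CPM. Brd2 had a median of 217 CPM in glioma cells and 238 CPM in surrounding cells, and Dexi ranged from 7.41 to 16.4 CPM and from 8.57 to 11.6 CPM. Glioma levels of Brd2 and Dexi as a share of surrounding levels had medians of 93.0% and 95.3%. The strand setting of the counting is not given in the sources used here, so reads of such pairs cannot be told apart, and their part in the glioma levels of H2-DMa and Ciita was not tested.

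Per kilobase of the longest coding transcript, Cd74 led the order in surrounding cells at every stage. In late symptomatic surrounding cells it averaged 1191 ± 397 CPM per kb (SD, n = 4), followed by H2-Aa at 715 ± 293, H2-Ab1 at 644 ± 272 and H2-Eb1 at 391 ± 149 CPM per kb. The ranges of neighbours in this order overlapped among these 4, and the lowest of H2-Eb1 lay above the highest of H2-DMa, at 57.3 ± 26.8 CPM per kb. The editors H2-DMb1, H2-Oa, H2-DMb2 and H2-Ob came next, and Ciita was the lowest at 7.41 ± 2.91 CPM per kb. In asymptomatic and early symptomatic glioma cells H2-DMa led the order, at 3.58 ± 0.70 and 3.94 ± 1.28 CPM per kb (SD, n = 4), with H2-Ab1 next at 2.32 ± 1.33 and 3.01 ± 0.71 and Cd74 after it at 1.22 ± 0.71 and 0.577 ± 0.173. H2-DMa and H2-Ab1 overlapped in both stages. In late symptomatic glioma cells Cd74 averaged 11.4 ± 21.4 CPM per kb, with 43.5 in 3057E, H2-Ab1 8.58 ± 4.01, H2-Aa 5.84 ± 10.7 and H2-DMa 3.68 ± 2.57 CPM per kb (SD, n = 4), and these 4 overlapped.

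In surrounding cells most class II genes rose with the late stage when set against the early symptomatic one. Of the 10 members 8 rose, beside 1.41% of the 17616 genes tested (edgeR's quasi-likelihood test, 12 surrounding libraries), and their median log2 fold change was 3.53, beside -0.00 over all genes. The late and early libraries did not overlap for 9 members, against 5.04% of genes that were higher without overlap; H2-DMa overlapped. The number of calls depended on single tumours. Without 3108D, 3109D or 3145A the count was 0, as was the count over all genes tested, and it was 0 without 3108D and 3109D together. Without 3054B, a late tumour, it was 5, with Cd74 (3.44, adjusted p = 0.053), Ciita (3.74, adjusted p = 0.064) and H2-Ob (1.53, adjusted p = 0.088) no longer called by edgeR, and 63 of 18141 genes were called. The log2 fold change of Cd74 was 3.67 without 3108D (adjusted p = 0.076) and 3.45 without both 3108D and 3109D (adjusted p = 0.37), beside 3.51 with all libraries.

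Cd74 had 636, 781, 82.1 and 554 CPM in asymptomatic, 202, 183, 82.1 and 103 CPM in early symptomatic and 874, 1962, 2135 and 1745 CPM in late symptomatic surrounding cells. Every late library was above every library of the other stages, and 1 asymptomatic library, 3228D, stood within the early range. Late minus early, the log2 fold change was 3.51 ± 0.61 (adjusted p = 0.021 by edgeR).

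H2-Aa had 227, 314, 37.1 and 289 CPM in asymptomatic, 66.1, 80.7, 35.0 and 42.3 CPM in early symptomatic and 319, 1019.7, 1003 and 883 CPM in late symptomatic surrounding cells. H2-Ab1 had 244, 335, 31.7 and 209.9 CPM in asymptomatic, 61.2, 83.1, 38.7 and 34.9 CPM in early symptomatic and 322, 814, 1104 and 883 CPM in late symptomatic surrounding cells. Both late groups lay above the early groups, and 3228D was again the low asymptomatic library. H2-Eb1 followed the same order, with 34.1 to 277, 27.5 to 76.2 and 293 to 819.6 CPM at the 3 stages. The log2 fold changes late minus early were 3.80 ± 0.62 for H2-Aa, 3.79 ± 0.64 for H2-Ab1 and 3.78 ± 0.60 for H2-Eb1, with adjusted p of 0.019 to 0.021.

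Among the peptide editors, 3 rose. H2-DMb2 rose by 3.56 ± 0.44 on the log2 scale (adjusted p = 0.017 by edgeR), with 16.5, 39.5, 36.6 and 24.4 CPM in late and 2.30, 3.48, 1.40 and 2.52 CPM in early symptomatic surrounding cells. H2-DMb1 rose by 2.08 ± 0.33 (adjusted p = 0.019), with 48.6, 80.5, 101 and 47.1 CPM in late and 22.8, 11.5, 11.8 and 17.6 CPM in early symptomatic surrounding cells. H2-Ob rose by 1.52 ± 0.31 (adjusted p = 0.035), with 14.7 to 25.6 CPM in late and 4.74 to 11.2 CPM in early symptomatic surrounding cells. All 3 were without overlap. Summed, the 2 copies of the DM beta chain rose by 2.39 ± 0.33 (adjusted p = 0.017).

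H2-DMa and H2-Oa did not pass. H2-DMa had 92.9, 126, 183 and 57.2 CPM in late against 71.8, 33.6, 33.9 and 45.8 CPM in early symptomatic surrounding cells, and the late library of 3057E lay within the early range. Its log2 fold change was 1.27 ± 0.35 (adjusted p = 0.098 by edgeR). H2-Oa had 15.4, 36.4, 31.7 and 18.4 CPM in late against 13.2, 5.33, 5.24 and 8.76 CPM in early symptomatic surrounding cells, without overlap, and a log2 fold change of 1.60 ± 0.37 (adjusted p = 0.055 by edgeR). DESeq2 and limma voom each called all 10 members, beside 1149 and 5191 of 17616 genes, and so did edgeR without 3057E, beside 3406 of 18043 genes.

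Ciita had 16.6, 30.4, 2.73 and 6.22 CPM in asymptomatic, 2.39, 7.51, 2.11 and 2.04 CPM in early symptomatic and 29.2, 33.2, 47.9 and 67.8 CPM in late symptomatic surrounding cells. The late group was apart from the early group, and 3057E was the highest surrounding library. Late minus early, Ciita rose by 3.61 ± 0.71 on the log2 scale (adjusted p = 0.030 by edgeR).

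Count ratios to Cd74 were also compared between late and early symptomatic surrounding cells. The log2 differences late minus early were -2.32 for H2-DMa, -1.47 for H2-DMb1, -1.91 for H2-Oa and -1.98 for H2-Ob. Each reached the smallest p that 4 against 4 libraries allow (exact two-sided permutation, p = 0.0286), and none passed after adjustment over 9 ratios (adjusted p = 0.0643). The ratios of H2-Aa, H2-Ab1, H2-Eb1 and Ciita to Cd74 differed by 0.21 to 0.26, with adjusted p of 0.31 to 0.68, and that of H2-DMb2 by 0.00 (exact permutation).

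Late and asymptomatic surrounding cells were compared with the same late libraries, so this comparison and the last share samples. No gene passed edgeR's test, members included. All 10 members were above 0, with log2 fold changes of 0.57 for H2-Ob to 1.92 for H2-Ab1, and 8 had an unadjusted p under 0.05, beside 16.0% of all genes. The late group was higher without overlap for 5 members, beside 3.17% of genes. DESeq2 and limma voom each called 6 members, beside 1002 and 4106 of 17616 genes, and edgeR called 4 without 3057E, beside 2962 of 18043 genes.

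Early symptomatic and asymptomatic surrounding cells gave no call either, in 17616 genes. All 10 members were below 0, with log2 fold changes of -1.94 for Ciita to -0.44 for H2-DMa, and 9 had an unadjusted p under 0.05, beside 3.66% of all genes. The groups overlapped for all 10. DESeq2 and limma voom called 0 members here.

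**Figure D3:**
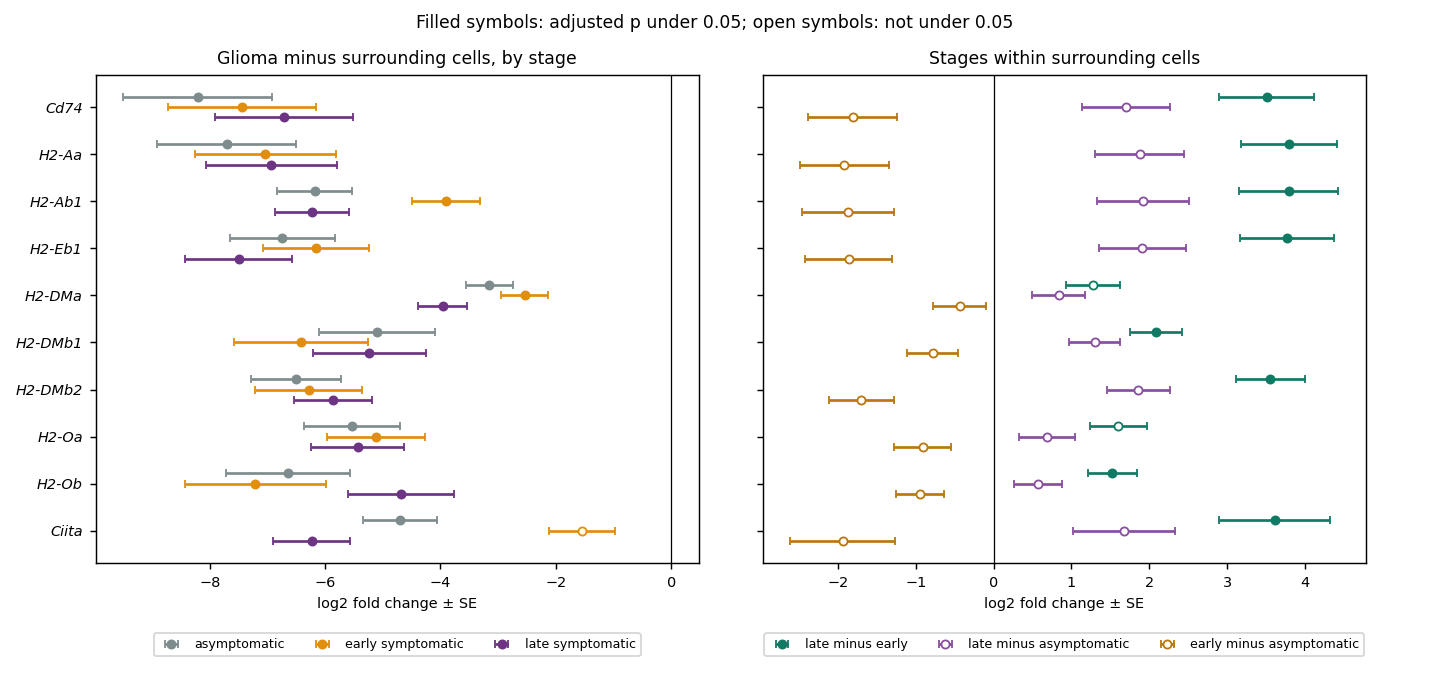
Log2 fold changes with standard errors are plotted for the 10 members, on the left glioma minus surrounding cells at each stage and on the right stages within surrounding cells; filled symbols have an adjusted p under 0.05. In the left panel every value is below 0, and in the right panel late minus early is above 0 for all 10 and early minus asymptomatic below 0.

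Across the 12 surrounding libraries the members varied together to different degrees. The 6 pairs among Cd74, H2-Aa, H2-Ab1 and H2-Eb1 had Pearson r of 0.991 to 0.997 on log2(CPM + 0.5), and of at least 0.969 once stage means were removed. All 45 pairs of members ranged from 0.581 to 0.997. Ciita had an r of 0.939 with Cd74, and of 0.581 with H2-DMa. These are descriptions over libraries that share stage and depth.

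The genes most like Cd74 over those libraries, of 14737 candidates, were H2-Aa, H2-Ab1, H2-Eb1, Klrd1, Cdh1, Clec10a, Plbd1, Itgb7, H2-DMb2 and Gpr141, with r of 0.963 to 0.994. Those most like H2-Aa were H2-Eb1, H2-Ab1, Cd74, Klrd1, Itgb7, Clec10a, Cldn1, H2-DMb2, Mgl2 and Napsa, with r of 0.970 to 0.997. Those most like Ciita were Itgb7, Kmo, Plbd1, Btla, Slamf7, Dpp4, Clec10a, H2-Ab1, Ifi203 and Stat4, with r of 0.952 to 0.966. Members made up 4, 4 and 1 of these lists of 10.

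Some markers of dendritic cells, monocytes and T cells rose with the members in late against early symptomatic surrounding cells. Of all genes tested there, 1.41% rose. Of 10 dendritic cell markers 4 rose in late against early symptomatic surrounding cells, namely Flt3 (3.72 ± 0.56), the growth factor receptor of the lineage, Ccr7 (4.59 ± 0.71), Clec10a (4.28 ± 0.94) and Wdfy4 (2.13 ± 0.39). Of 10 monocyte and macrophage markers 4 rose, namely Plac8, Ccr2, Ms4a7 and Ly6c2, by 2.93 to 4.63 on the log2 scale. Of 8 T cell markers 3 rose, Cd3e, Cd3g and Cd8a. The remaining markers of these lists were not called higher, among them Zbtb46, Xcr1, Clec9a, Cd209a, Itgax and Batf3 of the dendritic cell list. None of the 8 myeloid markers and none of the 10 microglia markers passed with all libraries, with median log2 fold changes of 1.14 and 0.34. Without 3057E, an alternative chosen after the data were seen, edgeR called 5 of the 8 myeloid markers and 3 of the 10 microglia markers higher in late symptomatic cells, beside 9.18% of 18043 genes, with medians of 1.38 and 0.71. The same fit called 7 of 10 dendritic cell, 8 of 10 monocyte and macrophage and 6 of 8 T cell markers higher. Of the 8 markers of oligodendrocyte precursors it called 0 higher and 5 lower, beside 9.7% of genes lower, with a median of -1.95.

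The summed dendritic cell markers were at 437 to 704 CPM in late and at 82.3 to 224 CPM in early symptomatic surrounding cells. The summed monocyte and macrophage markers were at 2081 to 4948 CPM in late and at 843 to 1674 CPM in early symptomatic surrounding cells. Both lists were without overlap between these stages. Over the surrounding libraries the highest medians of the dendritic cell list were those of Itgax (105 CPM) and Wdfy4 (61.1 CPM). In the monocyte and macrophage list they were those of Lyz2 (595 CPM) and Vcan (537 CPM), so these genes weigh most in the sums. The summed T cell markers were at 11.9 to 44.4 CPM in late and at 1.65 to 4.18 CPM in early symptomatic surrounding cells, with up to 1 and up to 2 markers at 0. The summed B cell markers were at 5.71 to 13.3 CPM in late and at 3.16 to 7.65 CPM in early symptomatic surrounding cells, with up to 2 and up to 3 markers at 0. The summed microglia markers were at 1327 CPM in 3057E and at 7621 to 10826 CPM in the other late libraries, against 3345 to 6238 CPM in early symptomatic surrounding cells. The summed myeloid markers were at 1582 CPM in 3057E and at 6415 to 9155 CPM in the other late libraries, against 2050.5 to 5909.5 CPM in early symptomatic surrounding cells. The summed markers of oligodendrocyte precursors were lower on the median in late symptomatic surrounding cells. They were at 524 to 8876 CPM (median 2390) in late and at 4712 to 10443 CPM (median 8113) in early symptomatic ones, with overlap. The part of these cell types in the rise of the class II genes was not tested. With the mean of the myeloid markers as a covariate 7 of 10 members were called, and H2-Ob was the call that was lost (1.45 ± 0.32, adjusted p = 0.083 by edgeR). The share of all genes called in that fit is not given here.

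The correlations of Cd74 with single immune genes covered a wide range. Its r over the 12 surrounding libraries was 0.962 with Flt3 and 0.920 with Ccr2, and 0.876 and 0.705 with stage means removed. Among other genes of dendritic cells and macrophages it was 0.807 with Ms4a7, 0.792 with Itgax, 0.550 with Cd209a and 0.395 with Mrc1. It was 0.736 with Ptprc, 0.030 with Csf1r, and 0.106 with Tmem119 and -0.299 with P2ry12, microglia markers. Spearman's rho was 0.476 with Csf1r, 0.490 with Tmem119 and -0.280 with P2ry12. In the surrounding library of 3057E, Csf1r and P2ry12 were the lowest of the 12, at 364 and 80.0 CPM, while Cd74 stood at 1745 CPM.

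**Figure D4:**
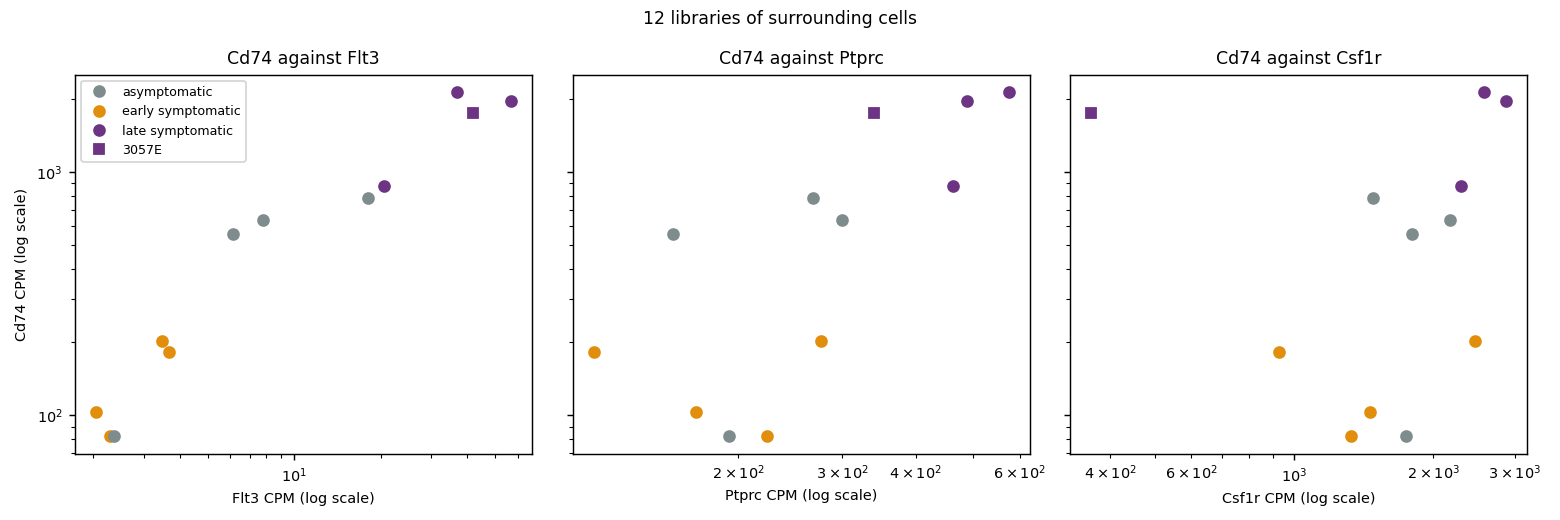
Cd74 is plotted against Flt3, Ptprc and Csf1r in the 12 surrounding libraries, with CPM on log axes and points coloured by stage; the square is 3057E. Cd74 and Flt3 are high in the same libraries, while 3057E combines high Cd74 with the lowest Csf1r.

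In glioma cells 5 of the 10 members passed the filter on low counts and could be tested between stages: Cd74, H2-Ab1, H2-Eb1, H2-DMa and Ciita. None passed edgeR's test in any of the 3 comparisons, where 0.273% of genes were called late minus early, 0.158% late minus asymptomatic and 0 early minus asymptomatic. At an unadjusted p under 0.05 there were 4, 2 and 1 of these 5 members, beside 19.7%, 14.8% and 4.91% of all genes.

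H2-Ab1 had 2.93, 2.26, 1.11 and 4.96 CPM in asymptomatic, 2.84, 4.07, 4.65 and 3.02 CPM in early symptomatic and 5.23, 9.20, 10.2 and 16.9 CPM in late symptomatic glioma cells. The late group was above both others without overlap, the only member of which this held. Its log2 fold change was 1.52 ± 0.45 late minus early (adjusted p = 0.12 by edgeR; 0.025 to 0.26 over 21 alternatives) and 1.89 ± 0.46 late minus asymptomatic (adjusted p = 0.10; 0.0041 to 0.28 over 21). DESeq2 called both, as did edgeR with the myeloid covariate, and limma voom and edgeR without 3057E called late minus asymptomatic.

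Cd74 in glioma cells turned on 1 library. It had 1.13, 1.09, 1.43 and 3.21 CPM in asymptomatic, 0.533, 1.09, 0.709 and 0.920 CPM in early symptomatic and 0.338, 0.625, 1.82 and 61.4 CPM in late symptomatic glioma cells. The value of 61.4 CPM was that of 3057E, which was also the library with the highest myeloid markers, and the other late gliomas overlapped both earlier stages. The log2 fold change late minus asymptomatic was 3.26 ± 1.33 (adjusted p = 0.28 by edgeR), and without 3057E it was -0.89 (adjusted p = 0.35). The 10 dendritic cell markers summed to 95.1 CPM in the glioma library of 3057E, with 3 of them at 0, Flt3 included. Of that sum Itgax made up 78.2 CPM, so it mostly reflects 1 marker. In the other 11 gliomas the 10 markers summed to 2.62 to 16.5 CPM. The part of dendritic cells in the level of Cd74 in 3057E was not tested.

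Ciita had 0.676, 0.671, 0.477 and 0.292 CPM in asymptomatic, 0.977, 1.09, 1.73 and 0.985 CPM in early symptomatic and 0.506, 0.804, 0.530 and 0.492 CPM in late symptomatic glioma cells. The early group was above both others, and each value rested on 4 to 22 counts. Late minus early the log2 fold change was -1.03 ± 0.46 (adjusted p = 0.24 by edgeR), and early minus asymptomatic it was 1.18 ± 0.46 (adjusted p = 0.94).

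Whether the stage differences of Ciita differed between the populations was tested as an interaction in all 24 libraries. Late minus early, the change in glioma cells minus that in surrounding cells was -4.69 ± 0.84 on the log2 scale (adjusted p = 0.21 by edgeR), the smallest p among the members, and no gene of 18810 passed. DESeq2, which called 43 genes, gave an adjusted p of 0.00016 and limma voom, which called 1124, of 0.038, while without 3108D and 3109D edgeR gave 0.9999. Without 3057E edgeR called 4 members in this contrast: Ciita (-4.41), H2-Oa (-3.67), Cd74 (-3.39) and H2-DMa (-2.32), with adjusted p of 0.0074 to 0.046, and 869 of 19254 genes. Of the 10 members 3 had an unadjusted p under 0.05, beside 6.20% of all genes. In the other interactions no gene passed either. An unadjusted p under 0.05 was reached by 2 members early minus asymptomatic, beside 1.54% of all genes. Late minus asymptomatic it was reached by 0 members, beside 8.43% of all genes.

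As a share of the surrounding level, glioma Ciita had 2.21% to 17.5% in asymptomatic, 14.5% to 82.2% in early symptomatic and 0.725% to 2.42% in late symptomatic tumours. Every late tumour lay below every early tumour, and the late and asymptomatic tumours overlapped. The highest early value was that of 3109D and the lowest that of 3108D, the codes whose Xist did not match, and the remaining early tumours had 40.9% and 48.2%.

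The factors that bind the X and Y boxes were called in both directions. Of 7 factors, 2 were higher in glioma than in surrounding cells, beside 22% of all genes, Rfxap (0.44 ± 0.10) and Nfyb (0.36 ± 0.09), and 2 were lower, beside 24.2%, Nfya (-0.43 ± 0.15) and Rfxank (-0.26 ± 0.10). Rfx5, the subunit that contacts DNA, had a log2 fold change of -0.00 ± 0.17 (adjusted p = 0.995 by edgeR). The median over the 7 was 0.16, beside 0.06 over all genes. None was called between stages in surrounding or glioma cells.

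Interferon gamma, which induces Ciita, was near 0: Ifng did not exceed 0.0788 CPM in glioma cells and 0.903 CPM in surrounding cells. Of the 8 genes of its pathway that were tested, 6 fell in glioma cells, among them the receptor chain Ifngr1 (-3.17 ± 0.23), Irf8 (-2.62 ± 0.22), Ifngr2 (-1.49 ± 0.17) and Irf1 (-1.37 ± 0.16). The median over the 8 was -1.27, and 24.2% of all genes fell.

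Genes that prepare peptides in endosomes fell in glioma cells in 10 of 10, beside 24.2% of all genes. Their median log2 fold change was -3.60. Among them were Ifi30 (-4.60 ± 0.47), a thiol reductase, Lgmn (-3.96 ± 0.34) and Ctsc (-3.79 ± 0.36), both proteases, and the protease inhibitor Cst3 (-3.40 ± 0.29). None of the 10 was called between stages in surrounding cells, where the median late minus early was 0.62.

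Of the costimulation and T cell side list 7 of 8 genes were tested and all 7 fell, beside 24.2% of all genes. Their median was -4.08. Among them were Cd86 (-5.44 ± 0.66), Cd40 (-5.33 ± 0.45), Icosl (-4.08 ± 0.32) and Cd80 (-3.94 ± 0.50), which give second signals to T cells. None was called between stages. Of the ubiquitin ligases that remove class II from the surface, Marchf1 fell by 0.77 ± 0.19 on the log2 scale and Marchf8 had 0.02 ± 0.10.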

How the data were processed

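Expected counts per gene were deposited by the authors for 24 libraries in 1 table. Per the submitters' processing notes, STAR 2.7.5c, RSEM 1.3.1 and GRCm38 (mm10) were used, and per the labels' protocols libraries were made with a total RNA kit from poly(A) RNA. Annotation release, strand setting and use of molecular identifiers are not given in the sources used here. From 13.2% to 16.5% of a library's values were not whole (tolerance 0.001), and rounding moved no total by more than 95.2 counts.

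Groups were taken from the labels, with 4 tumours per stage and population. The rounded expected counts went into edgeR 4.0.16 under R 4.3.3, with TMM scaling, edgeR's own expression filter (minimum count 10) and the robust quasi-likelihood test on group means. Glioma and surrounding cells and interactions were fitted on 24 libraries, stages on the 12 libraries of a population. The Benjamini-Hochberg adjustment ran over every gene in a fit; an adjusted p under 0.05 is a call, written as rose or fell. Each standard error is the fold change over the root of its F value. TMM factors of the 24 libraries scale the printed CPM. Comparisons of stages share libraries pairwise.

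Alternatives were DESeq2 1.42.0, limma 3.58.1 with weighted voom, RLE scaling, other filters, no robust spread, a fold limit of 2, all libraries in 1 fit, a myeloid covariate, library-total CPM, each tumour left out, and the tumour code as a replicate block. Tumour codes in the labels pair the glioma and surrounding library of each brain. Deviations of paired libraries from group means had an r of 0.0128 to 0.457, over 0.1 in 9 of 12 pairs. The lowest were 0.0128 in 3109D and 0.0395 in 3108D. No libraries of a group were copies (lowest chi-square per degree of freedom 22.2).

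Named genes are all members, up to 4 genes per list by smallest p between the populations, those called between stages, and the 10 genes most like Cd74, H2-Aa and Ciita among genes whose log2 CPM averaged 1 or more. Members, lists and tests were chosen with earlier results of these data known. Of 121 symbols 3 were not found. The stage comparisons of the interferon gamma list are not reported here. The 98.7% of identifiers found in GENCODE release M21 gave coordinates and overlaps; promoter windows are RefSeq's of GRCm38.p6.

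The fit was tested on simulated counts with 200 genes changed by known folds before use. Glioma minus surrounding, it called 55 of 98 genes changed 2-fold and 90 of 95 changed 8-fold. Late minus early, it called 4 of 97 and 71 of 97 in surrounding cells, and 19 of 96 and 82 of 99 in glioma cells. Most 2-fold changes between these stages were thus missed, so a gene that did not pass there may still have changed. Unchanged genes called were 10, 7 and 2.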

Additional observations from a re-analysis of the deposited data

Results flagged for a closer look

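In groups of 4 libraries, 12 of 60 had a highest or lowest library far from the other 3 for the group's range. This count is not set against a rate by chance, because members share libraries and vary together, and some groups hold libraries tied at 0. In surrounding cells of asymptomatic tumours 3228D stood low in Cd74 (82.1 CPM), H2-Aa (37.1 CPM) and H2-DMb2 (3.24 CPM). Among late symptomatic surrounding libraries 3054A was low in H2-Aa (319 CPM), and among early symptomatic ones 3108D was high in Ciita (7.51 CPM). In late symptomatic glioma cells 3057E was high in H2-DMb1 (7.18 CPM), H2-Oa (2.15 CPM) and H2-Ob (3.39 CPM), and 3054B was high in Ciita (0.804 CPM). In early symptomatic glioma cells 3109D was high in H2-DMb2 (0.0922 CPM) and low in H2-Oa (0.0788 CPM), and in asymptomatic glioma cells 3228D was high in H2-Ob (0.318 CPM). Those last 3 values rest on 1 to 4 counts.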

How the results depend on the processing

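The fall of the 10 members in glioma cells kept its direction under every alternative run. With the myeloid markers as a covariate 3 members were called, and 4, 0 and 1 in asymptomatic, early and late symptomatic tumours. Between the populations that fit cannot separate the markers from the sort. The same covariate gave 1 call, H2-Ab1, in glioma cells late minus early and late minus asymptomatic. In surrounding cells late minus early the count was 5 with all 24 libraries in 1 fit, 0 without 3108D and 3109D, and 0 to 10 with each tumour left out in turn. In surrounding cells late minus asymptomatic DESeq2 and limma voom called 6 members each and leaving out tumours 0 to 4. In glioma cells DESeq2 called 1 late minus early and 1 late minus asymptomatic, limma voom 1 late minus asymptomatic, and leaving out tumours 0 to 1 there. For the interaction late minus early the count was 1 by DESeq2, 2 by limma voom, 1 with 3108D and 3109D exchanged in the replicate block and 0 to 4 without each tumour; for late minus asymptomatic it was 2 by limma voom and 0 to 4. With the tumour code as a replicate block the counts were 10 overall and 10, 9 and 10 by stage, so no call changed. Cd74 in glioma cells, late minus asymptomatic, turned to -0.43 by limma voom and ranged from -0.89, without 3057E, to 3.74 when each tumour was left out; the cause of the other changes was not tested. Of 1737 fold changes of members under alternatives, 1622 kept direction and side of the threshold. That count holds all members for glioma minus surrounding cells and for stages within surrounding cells. For stages within glioma cells and for interactions it holds only some members, so some calls that changed there are left out. Few counts limit the members in glioma cells, where 5 of 10 could be tested between stages. Where no count over all genes stands beside a count of members called, it is not given here.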
